A study of Homo sapiens with 6 samples.

Results

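The genes followed here are 10 genes of the epithelial to mesenchymal transition (EMT) in HCC827 cells: CDH1, CDH2, VIM, FN1, SPARC, SNAI1, SNAI2, ZEB1, ZEB2 and TWIST1. They were picked by symbol, by a rule that uses no measured value but was written with earlier results of these data known, and all 10 are among the 28395 genes of the deposited table. HCC827, a long-established line from a human lung adenocarcinoma, carries a mutant, active EGFR, the kinase that the drug erlotinib inhibits. RNA was sequenced after oligo(dT) enrichment in 6 libraries, 3 from cells given the vehicle DMSO and 3 from cells given 1 µM erlotinib, all for 24 h. Every library came from this 1 line, so both groups share its EGFR mutation, and the labels do not say whether the 3 libraries of a group came from separate cultures, so the p-values measure the spread between these libraries, which may be technical. The DMSO libraries held 20858083, 24641819 and 21172884 reads on genes and the erlotinib libraries 21944007, 20760204 and 21678395.

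In EMT, epithelial cells give up the adherens junctions built on E-cadherin and take on the cytoskeleton, matrix and motility of mesenchymal cells. A small set of transcription factors of the SNAIL, ZEB and TWIST families drives the change by binding E-box letters in the promoters of epithelial genes and silencing them. In lung adenocarcinoma with mutant EGFR, a mesenchymal state is known as one of the states in which cells persist under EGFR inhibitors.

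The values are given as signal, which is the reads of a gene divided by 1 size factor per library. Of the 10 genes, 7 had a mean signal of at least 10 over the 6 libraries and were among the 14215 genes tested. CDH2, ZEB2 and TWIST1 lay under that minimum and are described by their reads. At an adjusted p-value under 0.05 (limma with Benjamini-Hochberg adjustment over all 14215 genes), the transcription factor genes SNAI1, SNAI2 and ZEB1 fell, the matrix genes FN1 and SPARC rose, and CDH1 and VIM were not called. In this comparison 70.7% of all tested genes were called, 35.4% as lower and 35.3% as higher, so that 5 called genes of 7 is close to the share among all genes. These were 5031 lower and 5012 higher genes, against 3955 and 6156 when each library was scaled to its total count. The median log2 fold change was -0.13 over the 7 genes and 0.02 over all tested genes. Expression was measured in whole cultures, where fewer cells of a type and less RNA per cell cannot be told apart.

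**Figure D1:**
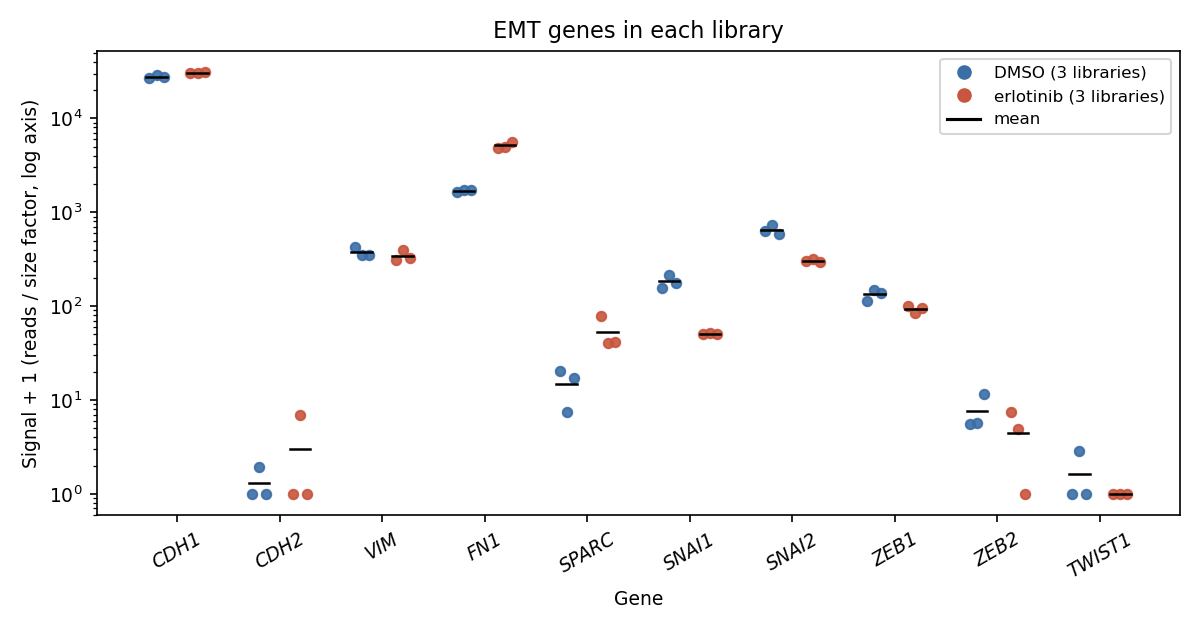
Signal + 1 (reads divided by the size factor, log axis) of the 10 EMT genes in each of the 6 libraries, with 1 point per library and a bar at the mean of each group of 3. CDH1 is the highest in every library, SNAI1 and SNAI2 are lower and FN1 and SPARC higher in all 3 erlotinib libraries, and CDH2, ZEB2 and TWIST1 stay near 0 reads.

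CDH1 (Entrez gene 999, chromosome 16, 68737292 to 68835537 of GRCh38) encodes E-cadherin, the adhesion molecule that holds epithelial cells together. Its signal was 27150, 28932 and 27390 in the DMSO libraries and 30079, 30438 and 31311 in the erlotinib libraries. All 3 erlotinib libraries were above all 3 DMSO libraries. The groups did not overlap for 6 of the 7 tested members, beside 73.6% of all tested genes. The means were 27824 ± 967 (SD, n = 3) and 30609 ± 633 (SD, n = 3). The log2 fold change was 0.14 ± 0.06 (SE, 95% confidence interval 0.01 to 0.27), and the gene was not called (adjusted p = 0.0531, limma). The call depends on the method, since the adjusted p was 0.0163 with DESeq2, 0.023 with edgeR and, in limma, 0.00348 without the DMSO 2 library. Per kilobase of its transcript, CDH1 stood at the 99.0th percentile of the tested genes in DMSO.

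CDH2 (Entrez gene 1000, chromosome 18, 27932879 to 28177130), which encodes N-cadherin, takes the place of E-cadherin in many mesenchymal cells. It had 0, 1 and 0 reads in the DMSO libraries against 0, 6 and 0 in the erlotinib libraries. The summed reads were 1 in DMSO (95% Poisson interval 0.0253 to 5.57) and 6 with erlotinib (2.20 to 13.1), and the 6 came from 1 library. The ratio of erlotinib to DMSO was 5.49 with a counting interval of 0.666 to 252, so no difference was detectable at this depth. These intervals cover counting error only.

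VIM (Entrez gene 7431, chromosome 10, 17228241 to 17237593) encodes vimentin, the intermediate filament protein of mesenchymal cells. Its signal was 425, 353 and 348 in the DMSO libraries and 310, 392 and 325 in the erlotinib libraries. The groups overlapped, with the second erlotinib library above 2 of the DMSO libraries. The log2 fold change was -0.13 ± 0.13 (SE, 95% confidence interval -0.40 to 0.13, adjusted p = 0.361, limma), and the gene was not called. The direction turned, to 0.05, when each library was scaled to its total count. VIM-AS1, an antisense RNA that overlaps the gene, had at most 26 reads in any library. The sources used here do not state the strand that was counted, so the reads of overlapping genes cannot be told apart.

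FN1 (Entrez gene 2335, chromosome 2, 215360865 to 215436068) encodes fibronectin, a matrix protein that is counted among the classical mesenchymal markers. Its signal was 1657, 1706 and 1717 in the DMSO libraries and 4861, 4927 and 5672 in the erlotinib libraries. The 3 DMSO values lay within a narrow band, and every erlotinib library was far above it. The mean rose from 1693 ± 31.6 (SD, n = 3) to 5153 ± 450 (SD, n = 3), a log2 fold change of 1.60 ± 0.07 (SE, 95% confidence interval 1.45 to 1.75, adjusted p = 6.05e-14, limma). This was a 3.04-fold rise, and its log2 fold change was at the 90.7th percentile of all tested genes. Over the 16 alternative settings it stayed between 1.53 and 1.78. ATIC and FN1-DT overlap FN1, and without the strand their reads cannot be told apart.

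SPARC (Entrez gene 6678, chromosome 5, 151661096 to 151686915) encodes osteonectin, a secreted protein that binds collagen. It was a rare transcript, with 17, 7 and 15 reads in the DMSO libraries against 84, 40 and 43 in the erlotinib libraries. The signal was 19.3, 6.50 and 16.1 in DMSO and 77.5, 39.6 and 40.3 with erlotinib. The groups did not overlap, and the spread within each was wide, with the first erlotinib library above the others. The mean rose from 13.9 ± 6.65 (SD, n = 3) to 52.5 ± 21.7 (SD, n = 3), a log2 fold change of 1.89 ± 0.43 (SE, 95% confidence interval 0.98 to 2.79, adjusted p = 6.15e-04, limma). Without that library, the log2 fold change was 1.57 (adjusted p = 0.0124, limma), and with a pseudocount of 10 in place of 1 it was 1.37. CLMAT3 overlaps SPARC, and without the strand their reads cannot be told apart.

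The promoters of FN1 and SPARC, the members that rose, are shown so that their sequences stand beside the values. Each spans 250 bases before to 50 bases after the start site (RefSeq, GRCh38.p14, minus strand, written 5′ to 3′ along the gene). In FN1 (chr2:215436019-215436318) the capitals mark TGACGTCA, the palindrome bound by cyclic AMP response factors, 183 bases before the start site. In SPARC (chr5:151686866-151687165) they mark CATTCC, the letters bound by TEAD factors, 17 bases before it.
FN1: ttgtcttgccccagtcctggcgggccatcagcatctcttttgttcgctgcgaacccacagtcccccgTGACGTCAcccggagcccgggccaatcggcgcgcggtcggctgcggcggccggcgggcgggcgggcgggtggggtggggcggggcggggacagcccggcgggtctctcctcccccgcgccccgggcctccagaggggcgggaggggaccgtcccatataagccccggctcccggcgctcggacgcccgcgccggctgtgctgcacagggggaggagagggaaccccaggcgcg
SPARC: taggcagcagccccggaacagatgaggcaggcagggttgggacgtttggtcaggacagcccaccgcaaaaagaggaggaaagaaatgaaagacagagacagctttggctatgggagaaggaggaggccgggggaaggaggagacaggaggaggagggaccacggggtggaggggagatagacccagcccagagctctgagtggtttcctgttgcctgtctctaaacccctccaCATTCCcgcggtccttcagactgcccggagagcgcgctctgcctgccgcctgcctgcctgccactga

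TGACGTCA, whose letters were looked for after the values had been seen, was present in 1.85% of 35116 promoter windows of that length. GGAATG or its complement CATTCC was present in 14.0% of them, and of the members' windows it was in that of SPARC and in 1 of 7 for ZEB1. The E-box CAGGTG or its complement CACCTG, the letters preferred by SNAIL and ZEB factors, was in 20.6% of all windows. The windows of FN1, SPARC, VIM, ZEB2 and CDH2 held 0 copies of it, while 2 of the 7 windows of ZEB1, a gene with several start sites, held 1 and 3 copies. The looser E-box CANNTG, which also counts every CAGGTG and CACCTG, was in 68.7% of all windows, and among the members in those of SPARC and ZEB2, in 1 of 2 for CDH2 and in 4 of 7 for ZEB1, but not in those of FN1 or VIM. TGANTCA, the AP-1 letters, was in 7.71% of all windows and, among the members, in 1 of the 2 for CDH2. Both strands were searched, and a match of letters is not a site known to be bound in these cells.

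SNAI1 (Entrez gene 6615, chromosome 20, 49982980 to 49988886) encodes SNAIL, a zinc finger repressor of CDH1. Its signal was 155, 215 and 176 in the DMSO libraries and 48.9, 50.5 and 49.6 in the erlotinib libraries. The 3 erlotinib libraries were nearly equal, and each was far below the lowest DMSO library. The mean fell from 182 ± 30.6 (SD, n = 3) to 49.7 ± 0.791 (SD, n = 3), a log2 fold change of -1.84 ± 0.20 (SE, 95% confidence interval -2.27 to -1.41, adjusted p = 7.98e-08, limma). The level was 3.58-fold lower, and the log2 fold change was at the 3.22nd percentile of all tested genes. Genes that fell by at least 1 log2 unit made up 10.8% of those tested, and genes that rose by as much made up 17.0%.

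SNAI2 (Entrez gene 6591, chromosome 8) encodes SLUG, the close relative of SNAIL. Its signal was 625, 725 and 593 in the DMSO libraries and 299.9, 319 and 294 in the erlotinib libraries. Again no erlotinib library reached the lowest DMSO library. The mean fell from 648 ± 69.0 (SD, n = 3) to 304 ± 13.0 (SD, n = 3), a log2 fold change of -1.08 ± 0.11 (SE, 95% confidence interval -1.32 to -0.85, adjusted p = 2.89e-08, limma). Within each library, SLUG transcripts outnumbered SNAIL transcripts per kilobase by 3.15, 2.63 and 2.64 times in DMSO and by 4.80, 4.94 and 4.63 times with erlotinib. The ratio was higher in every erlotinib library than in any DMSO library. Both calls held under all 16 alternative settings.

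ZEB1 (Entrez gene 6935, chromosome 10, 31318417 to 31529804) encodes a zinc finger and homeodomain repressor that closes the loop with the miR-200 family, each holding the other down. Its signal was 112, 148 and 137 in the DMSO libraries and 101, 83.2 and 94.5 in the erlotinib libraries. The groups did not overlap, but the lowest DMSO library was close to the highest erlotinib library. The mean fell from 132 ± 18.1 (SD, n = 3) to 92.8 ± 8.85 (SD, n = 3), a log2 fold change of -0.50 ± 0.19 (SE, 95% confidence interval -0.91 to -0.10, adjusted p = 0.0255, limma). The call was lost without DMSO 2 (adjusted p = 0.0817), without DMSO 3 (0.0645), without the second erlotinib library (0.0938) and without the third (0.0501), all with limma, while the log2 fold change stayed between -0.52 and -0.42. When each library was scaled to its total count it was -0.32 (adjusted p = 0.145, limma). ZEB1-AS1, which overlaps the gene on the other strand, had a higher signal than ZEB1 itself, at 255 ± 26.7 (SD, n = 3) in DMSO against 248 ± 15.8 (SD, n = 3) under erlotinib, and was not called (log2 fold change -0.04, adjusted p = 0.809, limma).

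ZEB2 (Entrez gene 9839, chromosome 2, 144384081 to 144520119) encodes the other ZEB repressor, and TWIST1 (Entrez gene 7291, chromosome 7, 19113047 to 19117636) a basic helix-loop-helix factor of the same programme. ZEB2 had 4, 5 and 10 reads in the DMSO libraries against 7, 4 and 0 in the erlotinib libraries. The sums were 19 (95% Poisson interval 11.4 to 29.7) and 11 (5.49 to 19.7), with a ratio of 0.530 and a counting interval of 0.228 to 1.17, so no difference was detectable at this depth. TWIST1 had 0, 2 and 0 reads in DMSO and 0 reads in all 3 erlotinib libraries. The sums were 2 (95% Poisson interval 0.242 to 7.22) and 0 (upper bound 3.69), with a counting interval of the ratio up to 4.87, so no difference was detectable at this depth. TWIST2, its closest relative, was well above both, at 332 ± 37.1 (SD, n = 3) in DMSO against 326 ± 19.2 (SD, n = 3) under erlotinib, and was not called (log2 fold change -0.02, adjusted p = 0.883, limma).

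**Figure D2:**
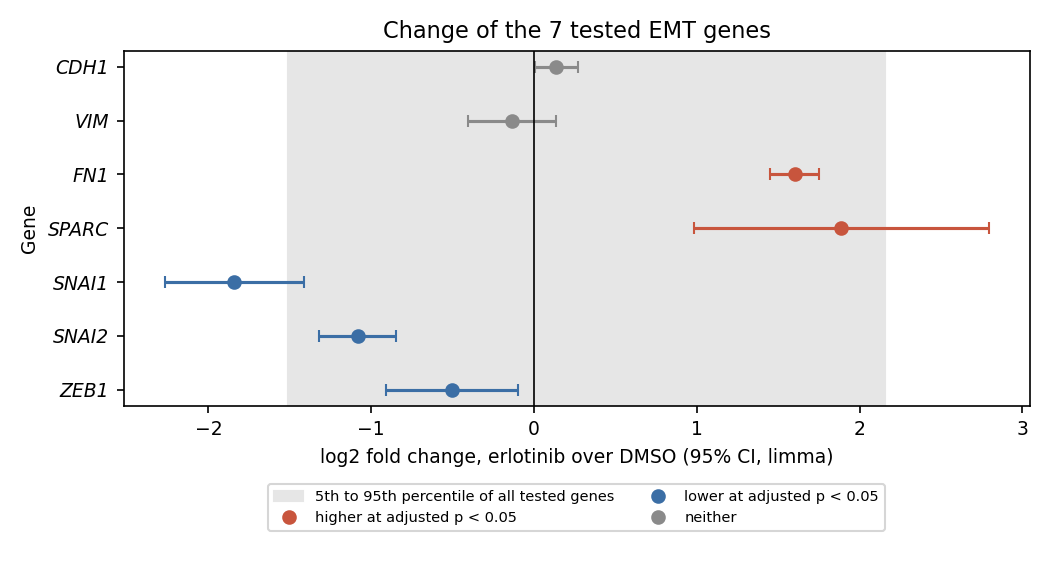
Log2 fold change of erlotinib over DMSO for the 7 tested EMT genes with limma's 95% confidence interval, over a band from the 5th to the 95th percentile of all tested genes (-1.51 to 2.15). SNAI1 lies below the band at -1.84, FN1 (1.60) and SPARC (1.89) lie inside its upper part, and the interval of VIM crosses 0.

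Ordered by signal per kilobase of the main transcript, the genes in DMSO ran from CDH1 (5783) through SNAI2 (297), FN1 (202), VIM (174), SNAI1 (107) and ZEB1 (22.3) down to SPARC (4.04), with ZEB2, TWIST1 and CDH2 each under 1. Adjacent values of FN1 and VIM were close, and their ratio within a library was 1.00, 1.24 and 1.27 in DMSO. With erlotinib FN1 moved to second place, at 614 per kilobase, ahead of VIM (159), SNAI2 (140), SNAI1 (29.1), ZEB1 (15.6) and SPARC (15.2). VIM and SNAI2 lay within about 1 SD of each other there (20.3 and 5.95 per kilobase), as did ZEB1 and SPARC, given the SD of SPARC of 6.29. The alignment did not split reads across introns, which can lower the counts of genes with short exons. Levels compared between different genes carry that limit.

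Within each library, the E-cadherin transcript exceeded the vimentin transcript per kilobase by 28.6, 36.7 and 35.3 times in DMSO and by 43.4, 34.8 and 43.2 times with erlotinib. These ranges overlapped, since the second erlotinib library fell among the DMSO libraries. The excess of CDH1 over FN1, in contrast, was 28.6, 29.6 and 27.8 in DMSO and 10.8, 10.8 and 9.63 with erlotinib. This ratio was lower in every erlotinib library than in any DMSO library.

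The miR-200 family holds ZEB1 and ZEB2 down by pairing with their messages, and its 5 members fall into 2 groups by seed. The mature sequences are shown because ZEB1 has many matches to them (RefSeq, 5′ to 3′, with the seed, bases 2 to 8, in capitals).
hsa-miR-200b-3p: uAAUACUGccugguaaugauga
hsa-miR-200c-3p: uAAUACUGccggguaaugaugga
hsa-miR-429: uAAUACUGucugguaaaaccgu
hsa-miR-200a-3p: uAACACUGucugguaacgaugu
hsa-miR-141-3p: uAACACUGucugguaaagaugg

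The 3′ UTR of ZEB1, 2540 bases in GENCODE on GRCh38, held 6 matches to the first seed (CAGTATT) and 3 matches to the second (CAGTGTT). Of 2406 genes with a 3′ UTR of like length, 26.4% held a match to the first seed and 28.2% a match to the second. As many as in ZEB1 were held by 1 gene (0.0416%) for the first and 16 genes (0.665%) for the second, counts that may include ZEB1 itself. Matches of each kind are shown on the plus strand with the seed match in capitals, at chr10:31527618-31527639, chr10:31527712-31527733 and chr10:31528031-31528052 in that order.
ZEB1 site a: attgttttatcttatCAGTATT
ZEB1 site b: atgctaaatccgcttCAGTATT
ZEB1 site c: caaaatcatcagaatCAGTGTT

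The libraries were made from oligo(dT) enriched RNA, so reads over the rows of the miR-200 genes come from longer transcripts across these loci and do not measure the mature miRNAs. These rows were looked at after values had been seen, and they are given without a test. MIR429 had 3, 3 and 11 reads in the DMSO libraries against 31, 27 and 24 in the erlotinib libraries. MIR200A, in the same cluster on chromosome 1, had 0, 10 and 6 reads against 20, 16 and 20. The third gene of that cluster, MIR200B, had 17, 6 and 3 reads against 14, 15 and 18, and its groups overlapped. On chromosome 12, MIR141 had 6, 7 and 4 reads in DMSO and 17, 26 and 34 with erlotinib. Its neighbour MIR200C had 0, 3 and 3 reads against 9, 7 and 6. In 4 of the 5 rows every erlotinib library exceeded every DMSO library, at 6 to 17 summed reads per row in DMSO and 22 to 82 with erlotinib. Groups that did not overlap made up 73.6% of all tested genes. MIR200C lay under the minimum mean signal of 10, and MIR200A, MIR429 and MIR141 passed it only through the group where they are high, so nothing is read from the count of 4.

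**Figure D3:**
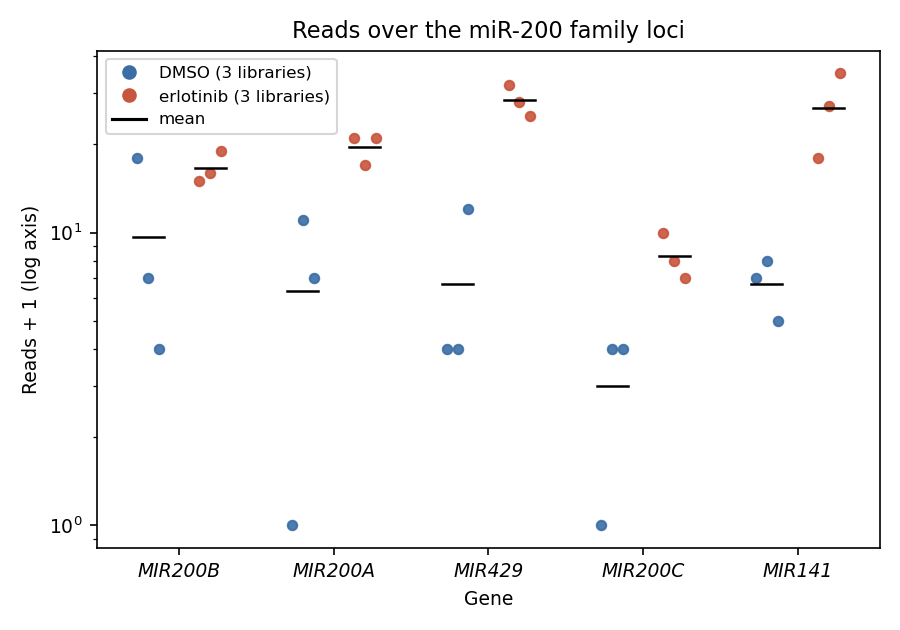
Reads + 1 (log axis) over the 5 miR-200 family gene rows in each library, 1 point per library, with a bar at the mean of each group of 3. The erlotinib libraries lie above the DMSO libraries at MIR200A, MIR429, MIR200C and MIR141, and overlap with them at MIR200B.

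Related genes were described in 7 lists by how many passed the test in each direction, for comparison with the members, and each count is to be read beside the 70.7% of all tested genes that were called, 35.4% lower and 35.3% higher. Among 12 genes of epithelial junctions and the epithelial surface, 11 were tested, 9 rose, 1 fell and EPCAM was not called, with a median log2 fold change of 0.40. The largest rises were those of CRB3, a polarity protein of the apical membrane, from 472 ± 61.1 (SD, n = 3) to 1119 ± 30.8 (SD, n = 3), with a log2 fold change of 1.25 ± 0.10 (SE, adjusted p = 5.83e-10, limma), and of JUP, plakoglobin of junctions and desmosomes, from 8271 ± 968 to 17196 ± 584, with a log2 fold change of 1.06 ± 0.08 (SE, adjusted p = 7.46e-11). CTNNB1, beta-catenin, which ties E-cadherin to actin and also acts in Wnt signalling, was the 1 gene that fell, from 6309 ± 629 to 4892 ± 185, with a log2 fold change of -0.36 ± 0.07 (SE, adjusted p = 1.59e-04). TJP1 had at most 5 reads in any library. TJP1 and OCLN have copies on alternate contigs of the genome, where reads that map to both places are not counted, so their levels are uncertain.

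Among 15 genes that keep the epithelial state, all 15 were tested, 9 rose, 4 fell and GRHL1 and OVOL1 were not called, with a median log2 fold change of 0.29. ELF3, an epithelial ETS factor, rose from 4954 ± 176 (SD, n = 3) to 16087 ± 216 (SD, n = 3), with a log2 fold change of 1.70 ± 0.06 (SE, adjusted p = 1.53e-15, limma). FOXA1, a pioneer factor of lung epithelium, rose from 1998 ± 51.6 to 4248 ± 169, with a log2 fold change of 1.09 ± 0.07 (SE, adjusted p = 8.83e-12). The rarer FOXA2 had the largest fall of the list, from 81.2 ± 27.1 to 38.7 ± 5.20, with a log2 fold change of -1.01 (adjusted p = 0.00304, limma). KLF4, a factor of differentiated epithelium, fell by 0.83 on the log2 scale (adjusted p = 1.44e-08) and ESRP2, a splicing factor of epithelial isoforms, fell by 0.79 on the log2 scale (adjusted p = 2.23e-09). Its paralog ESRP1 rose, with a log2 fold change of 0.25 (adjusted p = 0.00138, limma), so the pair moved apart.

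Beyond the SNAIL, ZEB and TWIST1 members, 15 other transcription factors with a known part in EMT were listed, of which 11 were tested, 6 fell, 4 rose and TWIST2 was not called, with a median of -0.28. SOX9 fell from 354 ± 52.7 (SD, n = 3) to 49.8 ± 10.5 (SD, n = 3), with a log2 fold change of -2.81 ± 0.19 (SE, adjusted p = 4.61e-11, limma). FOSL1, an AP-1 subunit with a near copy of its sequence elsewhere in the genome, fell by 4.15 on the log2 scale (adjusted p = 8.76e-20). SOX4 moved the other way, from 7453 ± 884 to 47340 ± 1380, with a log2 fold change of 2.67 ± 0.07 (SE, adjusted p = 4.22e-17), and KLF8, a repressor of CDH1, rose by 1.39 log2 units (adjusted p = 1.11e-08). The third SNAIL family gene, SNAI3, was rare and rose while SNAI1 and SNAI2 fell, with a signal of 7.94, 15.8 and 9.63 in DMSO and 50.8, 37.6 and 19.7 with erlotinib (log2 fold change 1.56 ± 0.46 SE, adjusted p = 0.00512, limma). Without the first erlotinib library the adjusted p was 0.0538. SNAI3-AS1 overlaps it, and its reads cannot be told apart from those of SNAI3 without the strand.

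The partners that the EMT factors recruit and the enzymes that break them down were counted in a list of 14, of which 13 were tested, 5 fell, 1 rose and 7 were not called, with a median of -0.05. The 5 that fell were the corepressor gene CTBP2, the deacetylase genes HDAC1 and HDAC2 (for HDAC2 not when scaled to total count, adjusted p = 0.0617), the histone demethylase gene KDM1A, which SNAIL recruits, and the methyltransferase gene EZH2. The partner genes CTBP1, SIN3A and AJUBA were not called (log2 fold change -0.05, -0.03 and -0.01). EZH2 went from 785 ± 61.1 (SD, n = 3) to 311 ± 30.7 (SD, n = 3), with a log2 fold change of -1.33 ± 0.11 (SE, adjusted p = 8.69e-10, limma), and KDM1A fell by 0.59 on the log2 scale (adjusted p = 4.77e-07). Of the genes for turnover of SNAIL protein, GSK3B, BTRC, FBXL14 and FBXO11 were not called, and the ubiquitin ligase gene SIAH1 rose by 0.27 log2 units (adjusted p = 0.0137), a call that was lost without DMSO 3 (adjusted p = 0.0542) and without the second erlotinib library (0.0848, limma). HDAC1 has a near copy of its sequence elsewhere in the genome.

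TGF-beta is the best known inducer of SNAI1 and of EMT in epithelial cells. Of 13 genes for its ligands, receptors and SMAD proteins, 12 were tested, 6 rose, 2 fell and 4 were not called, with a median of 0.35. The ligand genes parted. TGFB1 fell from 1591 ± 205 (SD, n = 3) to 1046 ± 59.2 (SD, n = 3), with a log2 fold change of -0.60 ± 0.09 (SE, adjusted p = 8.11e-06, limma), while TGFB2 rose by 0.86 log2 units (adjusted p = 4.26e-10) and the rarer TGFB3 rose from 33.8 ± 7.16 to 124 ± 20.3, with a log2 fold change of 1.85 ± 0.25 (SE, adjusted p = 1.46e-06). SMAD7, an inhibitor that TGF-beta itself induces, rose by 0.77 log2 units (adjusted p = 2.38e-08), and SMAD3, which carries the signal to the nucleus, fell by 0.31 on the log2 scale (adjusted p = 2.05e-04, limma), a call that was lost when libraries were scaled to their total count (adjusted p = 0.0677).

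Among 19 mesenchymal cytoskeleton and surface genes, 15 were tested, 7 fell, 6 rose and 2 were not called, with a median of -0.07, so the list had no common direction. NT5E, the surface enzyme CD73, fell from 8968 ± 354 (SD, n = 3) to 2685 ± 12.4 (SD, n = 3), with a log2 fold change of -1.74 ± 0.06 (SE, adjusted p = 1.86e-15, limma), and the receptor kinase gene AXL fell by 1.51 on the log2 scale (adjusted p = 3.31e-07). TPM2, a tropomyosin, rose from 86.3 ± 22.0 to 337 ± 26.7, with a log2 fold change of 1.98 ± 0.18 (SE, adjusted p = 4.10e-09), and MYL9, a myosin light chain, rose by 0.52 log2 units (adjusted p = 0.00499). The rarer TAGLN and S100A4 also rose, by 1.16 and 1.08 log2 units (adjusted p = 7.17e-05 and 0.00232, limma). ACTA2, the smooth muscle actin gene of myofibroblasts, had at most 11 reads in any library, and CDH11, another mesenchymal cadherin, had 0 in all 6.

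Among 22 matrix and matrix enzyme genes, 17 were tested, 8 rose, 5 fell and 4 were not called, with a median of 0.30. TNC, the matrix protein tenascin C, fell from 15802 ± 481 (SD, n = 3) to 3784 ± 338 (SD, n = 3), with a log2 fold change of -2.07 ± 0.07 (SE, adjusted p = 5.46e-16, limma), and CTGF, a matricellular growth factor, fell by 1.50 on the log2 scale (adjusted p = 9.72e-08). VCAN, the proteoglycan versican, rose by 0.80 log2 units (adjusted p = 2.24e-08). The 4 called as higher by at least 1 log2 unit, FBN1, COL5A1, COL6A2 and COL1A1, had a mean signal of at most 77.7 in DMSO. COL5A1, with a mean of 4.94 in DMSO and 17.5 with erlotinib, passed the minimum of 10 only through the group where it is high, so its place among the 8 is no support for a rise. Its call was also lost without the second erlotinib library (adjusted p = 0.0648) and without the third (0.0599, limma). COL1A1 rose from 77.7 ± 15.3 to 216 ± 27.9, with a log2 fold change of 1.47 ± 0.19 (SE, adjusted p = 6.78e-07, limma), and FBN1, fibrillin, had 13.6, 15.8 and 7.49 in DMSO and 88.6, 112 and 97.4 with erlotinib, a log2 fold change of 2.97 ± 0.34 (SE, adjusted p = 1.28e-07). COL1A2, whose protein joins that of COL1A1 in the collagen fibre, had 3 reads in all of DMSO and 0 with erlotinib.

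**Figure D4:**
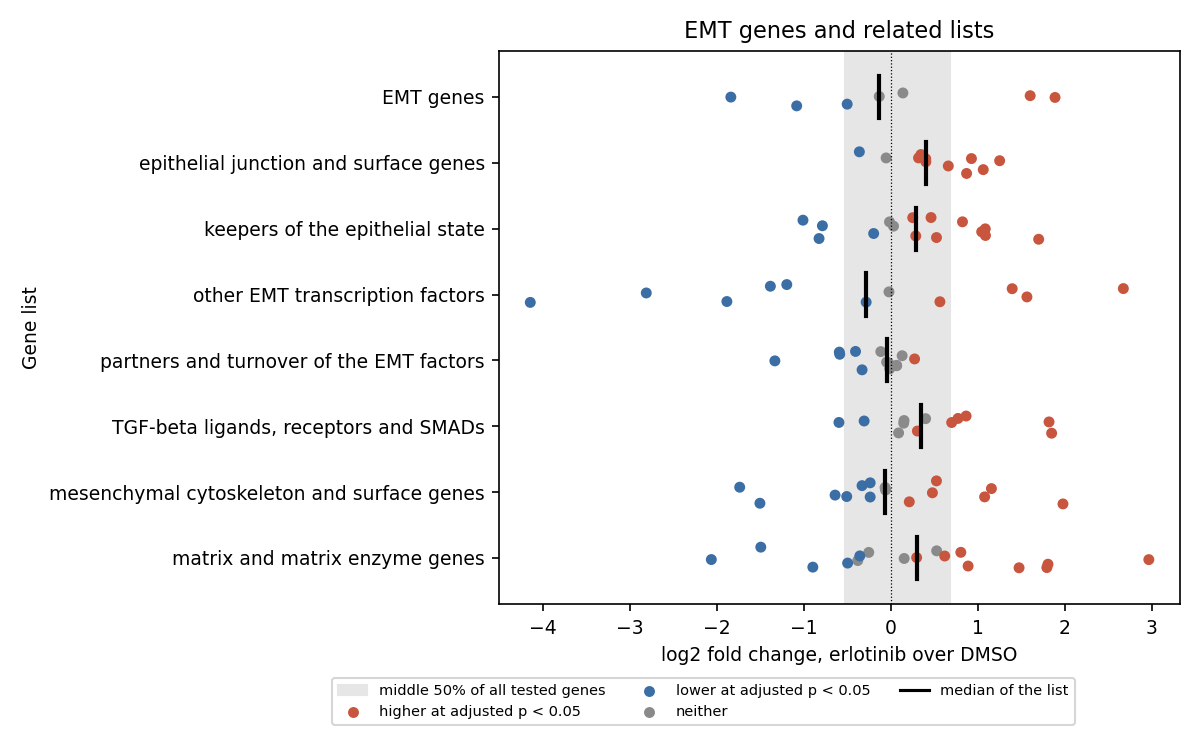
Log2 fold change of erlotinib over DMSO for every tested gene of the EMT list and 7 related lists, 1 point per gene, coloured by its call at an adjusted p-value under 0.05, with a bar at the median of each list over a band from -0.53 to 0.68 that spans the quartiles of all tested genes. The medians lie between -0.28 and 0.40, and every list has tested genes on both sides of 0.

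Marker genes were examined to check the cells against their label. All 8 markers of lung adenocarcinoma epithelium were present, with KRT7 the most abundant, and their summed signal was 263988, 229954 and 254235 in the DMSO libraries and 171539, 174786 and 175671 in the erlotinib libraries. Within that list the keratin genes KRT7, KRT8, KRT18 and KRT19 fell, with log2 fold changes from -1.25 to -0.39, and MUC1 (2.82), NAPSA (1.92) and NKX2-1 (1.53) rose. KRT8, KRT18, KRT19 and NAPSA have near copies of their sequence elsewhere in the genome. Of 9 fibroblast markers, 1 (COL1A1, the most abundant) passed the minimum, THY1 and FAP were at 0 reads in all 6 libraries, and each of the others had at most 20 reads in any library. Their summed signal, nearly all of it COL1A1, was 73.7, 75.2 and 109 in DMSO and 260, 223 and 217 with erlotinib, so it moved with FN1 and SPARC, and the part of any such cells in those rises was not tested.

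Of 6 leukocyte markers 1, CD68, which many cell types express, passed the minimum, and the others, PTPRC among them, had at most 26 reads in any library. Their summed signal was 2784, 2801 and 3158 in DMSO and 3250, 3555 and 3478 with erlotinib. Of 5 endothelial markers PECAM1 and VWF passed. PECAM1 went from a mean of 15.7 to 10.4 and was not called (log2 fold change -0.55, adjusted p = 0.348, limma). VWF averaged 3.94 in DMSO and 27.4 with erlotinib, so it passed the minimum only through the group where it is high, and its values are given as a description. CDH5, KDR and TEK had at most 13 reads in any library. The summed signal of the 5 was 34.0, 15.8 and 24.6 in DMSO and 58.1, 46.5 and 48.7 with erlotinib.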

How the data were processed

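Read pairs were aligned by the authors to GRCh38 using Bowtie2 2.3.4, and those with a unique position were assigned to genes using featureCounts 1.6.3, with DESeq2 1.18.1 for their own tests (versions from the submitters' processing notes). The deposited table holds signal, in which each library's reads are divided by its size factor. This division and the strand counted are not given in the sources used here. Whole reads were recovered for 100% of the values within 0.01 of a read, and the size factors were 0.882 to 1.08. Between replicates, chi-square divided by its degrees of freedom was 4.15 to 23.5, above sampling noise. Bowtie2 does not split reads across introns, which can lower the counts of genes with short exons.

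Differences of erlotinib and DMSO were tested, two-sided and without covariates, with limma 3.58.1 and a mean-variance trend on log2(signal + 1). This covered 14215 genes whose signal averaged 10 or more, with a threshold of 0.05 after Benjamini-Hochberg adjustment. Fold changes are on that scale, which understates the change of low genes. The alternatives were DESeq2 1.42.0, edgeR 4.0.16 and limma-voom with TMM factors on the recovered reads, TMM factors or total-count scaling in limma, pseudocounts of 0.1 and 10, no filter, at least 10 reads per library, a threshold of 0.01 and each library left out in turn.

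The members and lists were chosen with earlier results of these data known, and the lists were written from general knowledge. From each list of related genes, up to 2 called genes were named per direction, those that changed most among genes whose signal averaged 100 or more. Genes named besides these were chosen after their values were seen. Poisson intervals are exact, at 95%, and cover counting error only. Coordinates are from RefSeq on GRCh38. Transcript lengths and the 3′ UTR are from GENCODE on GRCh38. A search of the transcripts with minimap2 found no near copy of the 10 members elsewhere in the genome. Promoter sequences were matched by symbol for 6 of the 10 members, and none is shown for CDH1, SNAI1, SNAI2 or TWIST1.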

Additional observations from a re-analysis of the deposited data

How the results depend on the processing

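FN1, SPARC, SNAI1 and SNAI2 kept their direction and their call under every alternative that gave a value, and SPARC gave none with at least 10 reads in every library. Scaling to the total count moved the median over all genes from 0.02 to 0.19 on the log2 scale, and with no filter it was 0.13. CDH1, not called in the main analysis, was called in edgeR (0.15, adjusted p = 0.023), DESeq2 (0.15, 0.0163), voom (0.15, 0.00901), limma with TMM factors (0.15, 0.025), a pseudocount of 0.1 (0.14, 0.0463) and total-count scaling (0.32, 9.02e-05), and over the left-out libraries its log2 fold change was 0.12 to 0.17, called without DMSO 2. VIM turned from -0.13 to 0.045 with total-count scaling (adjusted p = 0.759, limma). ZEB1 lost its call with total-count scaling (-0.32, adjusted p = 0.145), with no filter (-0.50, 0.0509) and at a threshold of 0.01 (-0.50, 0.0255), and over the left-out libraries its log2 fold change was -0.62 to -0.42. The cause was not tested.

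With at least 10 reads in every library, 1 EMT gene rose in place of 2, since SPARC was not tested, and 5 matrix genes in place of 8. Of the partners and turnover genes, 4 in place of 1 rose with total-count scaling, 2 with TMM factors in limma, 2 with voom, 0 at the threshold of 0.01, and 0 to 1 over the left-out libraries. The TGF-beta genes that fell were 1 in place of 2 with total-count scaling, and the matrix genes that rose were 5 to 9 over the left-out libraries, with 5 without the third erlotinib library. The other counts stayed within 1.5 times of the main count. No paired analysis was possible because the erlotinib columns carry numbers that match no replicate number in the labels. The reads of CDH2, ZEB2 and TWIST1 were too few to compare.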
